A study of Mus musculus with 42 samples.

Results

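The Usp17l deubiquitinases and the zinc finger gene Zfp352 were followed through the early cleavage of mouse embryos. The genes were taken by symbol, as Usp17la, Usp17lb, Usp17lc, Usp17ld, Usp17le and Zfp352, and all 6 were found among the 15737 genes of the RNA-seq table whose symbol was listed once. These rows cover chromosomes 1 to 11, the last in part.

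The embryonic genome of the mouse is first transcribed in a weak early wave called minor zygotic genome activation (ZGA), and then in a stronger major wave at the 2-cell stage. The factor DUX, encoded by Duxf3 and its copies, drives a short-lived set of 2-cell genes that includes the Usp17l family and Zfp352. USP17L enzymes remove ubiquitin from proteins, and the first of them were described as immediate-early genes of blood cells that respond to cytokines. Zfp352 encodes a zinc finger protein known for its transcription at the 2-cell stage.

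Embryos came from superovulated ICR females mated to ICR males. RNA-seq was made for 9 groups, with 18 samples in the labels, and each library held 3 pooled embryos. Early 2-cell embryos were untreated and were taken 34 h after hCG, the hormone that triggers ovulation. Late 2-cell embryos at 48 h were controls, or were given 0.01 µM FK866, 0.01 µM FK866 with 10 µM NMN, or 10 nM TSA, or were Sirt1 knockdown embryos. The last group is labelled as treated with Sirt1, and according to the study's methods the zygotes were injected with siRNA, Trim21 mRNA and an antibody to SIRT1, so that both the RNA and the protein were targeted. The 4-cell embryos at 58 h were controls, or were given FK866 or FK866 with NMN at the same doses. The labels call the controls untreated, and the methods give DMSO, the solvent of the inhibitors, as the negative control. For the knockdown the methods name another negative control, zygotes injected with scrambled siRNA and Trim21 mRNA. The labels hold no separate group of injected controls, so injection and knockdown cannot be told apart here. FK866 blocks NAMPT, the enzyme that makes NMN in the salvage synthesis of NAD+, while NMN supplied in the medium enters after that step. TSA inhibits histone deacetylases, and SIRT1 is a deacetylase that uses NAD+.

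The table holds 1 FPKM column for each group. FPKM counts fragments relative to the exon length of the gene and to the depth of the library. In each column 95.4 to 97.8% of the values above 0 gave sums of whole reads once multiplied by exon length, which separates the libraries added in a column. Here 7 columns held 2 libraries, and 1 library was found under each of the headers 4-cell FK866 and 4-cell FK866+NMN. The 16 libraries had 3169677 to 10003481 reads, and the reads behind all 54 values of the 6 genes (9 columns each) were recovered. Library A is the one with more reads in its column and library B the other, and the letters carry no pairing. No test between groups was run. Differences are given beside the levels of the separate libraries. Intervals of reads are exact 95% Poisson intervals and cover counting error only, as does the limit of 3 reads that a count of 0 allows.

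The supplementary tables of the study go against the header in 5 of 9 columns. Only listed genes that are also among the rows used here could be compared, and all counts in this paragraph are of those. They come to 84 values for each 4-cell group and none for early 2-cell embryos. Within 0.01%, for controls all 84 were found under the header late 2-cell TSA, for FK866 all 84 under late 2-cell Sirt1, and for FK866+NMN all 84 under 4-cell control. The direction of the listed TSA changes was found for 1203 of 1203 genes in the column headed 4-cell FK866, and that of the listed Sirt1 knockdown changes for 773 of 821 genes in the column headed 4-cell FK866+NMN. Directions separate the columns less sharply than values do. The next best column was early 2-cell for TSA, with 1096 of 1203, and late 2-cell FK866 for the knockdown, with 703 of 821. The late 2-cell control, FK866 and FK866+NMN columns matched their headers at 117, 118 and 117 of 118 listed values. Each result is given by the headers first and then by the tables.

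Sirt1, the knockdown target, stood at 86.6 and 66.2 FPKM in the 2 late 2-cell control libraries. In the column headed late 2-cell Sirt1 it stood at 32.4 and 73.1 FPKM, so 1 library overlapped the controls. The column that the tables assign to the knockdown held 11.3 FPKM in its single library, and the one they assign to TSA held 7.61. Both values lie between the 2 early 2-cell libraries, at 13.5 and 6.18 FPKM.

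In the reference genome (GRCm38, GENCODE M21 annotation) the 5 Usp17l genes lie on chromosome 7 within 1612931 bases. Usp17ld (chr7:103249737-103252505, minus strand) and Usp17lc (chr7:103415072-103419880, plus strand) form one pair. Usp17le (chr7:104768049-104777470, minus strand), Usp17lb (chr7:104840257-104842603, minus strand) and Usp17la (chr7:104857009-104862667, plus strand) follow after 1348168 bases that hold 105 annotated genes, 66 of them olfactory receptor genes named Olfr. Usp17lb and Usp17la point away from each other across 14405 bases with no annotated gene between them. Zfp352 lies on chromosome 4 (chr4:90218820-90225702, plus strand), with 2 exon blocks.

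The Usp17l copies are similar enough to share reads. Their longest annotated transcripts were 91.0 to 97.9% identical over the aligned bases, with Usp17lc and Usp17ld the closest pair. Of all 50-base windows of its transcripts, Usp17ld shared 51.1% with another annotated gene and Usp17lc 44.7%, against 29.8% for Usp17le, 21.4% for Usp17lb, 20.1% for Usp17la and 7.09% for Zfp352. How the counting step treated reads that fit several places is not given in the sources used here. The split between copies, above all between Usp17lc and Usp17ld, is therefore uncertain.

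Promoter sequences from RefSeq (GRCm38.p6) were held for 5 of the 6 genes, with Usp17le missing. A stretch of 91 bases aligned without gaps before the start sites of 4 Usp17l genes and is shown to set these copies side by side. A link between these stretches and expression was not tested. Capitals mark TATAAA, or TTTAAA at the same place in Usp17la. The stretches are chr7:104856910-104857000 (plus) for Usp17la, chr7:104842584-104842674 (minus) for Usp17lb, chr7:103416548-103416638 (plus) for Usp17lc and chr7:103252585-103252675 (minus) for Usp17ld.
Usp17la: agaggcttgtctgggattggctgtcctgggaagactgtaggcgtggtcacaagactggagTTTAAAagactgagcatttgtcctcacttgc
Usp17lb: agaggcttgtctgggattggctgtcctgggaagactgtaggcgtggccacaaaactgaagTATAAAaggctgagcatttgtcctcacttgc
Usp17lc: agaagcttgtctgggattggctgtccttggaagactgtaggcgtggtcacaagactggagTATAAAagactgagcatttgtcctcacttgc
Usp17ld: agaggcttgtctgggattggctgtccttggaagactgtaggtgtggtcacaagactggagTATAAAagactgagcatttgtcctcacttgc

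These stretches were 93.4 to 97.8% identical between pairs. TATAAA, searched on both strands, was present in 13.6% of the 32851 promoter windows of 300 bases, and TTTAAA, which reads the same on both strands, in 13.2%. The first base of the capitals lies 46 bases before the RefSeq start of Usp17la, 31 before that of Usp17lb, 88 before that of Usp17lc and 110 before that of Usp17ld. By GENCODE the Usp17lc stretch is intronic, 20 bases of the Usp17lb stretch fall in its first exon, and the Usp17la and Usp17ld stretches lie outside annotated genes.

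The Zfp352 promoter is unlike these. The 250 bases before its start (chr4:90218570-90218819, plus strand, outside annotated exons) are made largely of a short repeat, and are shown because no other promoter in the set holds it. Capitals mark TAATCC.
Zfp352: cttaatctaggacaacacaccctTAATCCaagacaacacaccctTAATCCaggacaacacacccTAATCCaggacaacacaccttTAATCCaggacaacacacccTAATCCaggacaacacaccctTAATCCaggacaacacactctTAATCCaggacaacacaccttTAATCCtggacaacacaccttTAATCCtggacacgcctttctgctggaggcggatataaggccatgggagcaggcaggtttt

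TAATCC occurred 9 times here, all on the plus strand, and no other of the 32851 windows held as many. At least 1 match on either strand was present in 7.06% of windows and in none of the 4 Usp17l windows. The motifs were chosen after the sequences were seen.

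Usp17lb was the main Usp17l copy. It was the only member with reads in all 16 libraries, and it made up 60.1 to 100% of the summed Usp17l FPKM of a library. In early 2-cell embryos it stood at 30.4 FPKM (26.9 to 34.3) in library A and 21.1 (17.9 to 24.7) in library B. In late 2-cell controls it was at 44.7 and 84.1 FPKM, above both early libraries.

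FK866 and FK866+NMN late 2-cell embryos held the highest Usp17lb levels. They stood at 113 and 90.5 FPKM with FK866, and at 111 and 189 FPKM with FK866+NMN. The column headed 4-cell FK866 held 83.6 FPKM and that headed 4-cell FK866+NMN 65.8.

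The 3 columns that the tables assign to 4-cell embryos were lower. Usp17lb was at 8.88 and 22.9 FPKM in the column headed late 2-cell TSA, at 16.5 and 1.01 in that headed late 2-cell Sirt1, and at 25.0 and 10.9 in that headed 4-cell control. Of the 10 libraries in the other columns, 9 lay above all 6 of these, the exception being early 2-cell library B. The share of all genes that divide in this way was not counted.

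Usp17lc was detected in every library outside those 3 columns. It had 49 and 48 reads in early 2-cell embryos (3.54 and 4.21 FPKM) and 87 and 48 reads in late 2-cell controls (5.44 and 4.70 FPKM). With FK866 its libraries were at 10.7 and 3.46 FPKM and with FK866+NMN at 5.63 and 22.8. These ranges overlap, and in each of these 2 columns the libraries differ from each other by more than 2-fold.

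The columns headed late 2-cell TSA and 4-cell control had no Usp17lc read in either library, which allows up to 0.0914 and 0.121 FPKM over the group. That headed late 2-cell Sirt1 had 1 read in each library. The single libraries under the headers 4-cell FK866 and 4-cell FK866+NMN were at 6.27 and 7.32 FPKM. So the 10 other libraries all lay above the 6 of the 3 columns, with 3.46 FPKM as the lowest against 0.129 as the highest. How many other genes divide in this way was not counted.

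Usp17ld, the copy nearest to Usp17lc in sequence, differed from it in direction between early and late 2-cell controls. Over all 9 columns Pearson's r of their log2 levels was 0.87, and the split of reads between these copies is uncertain. Usp17ld is given here by library. It stood at 4.28 and 7.69 FPKM in early 2-cell embryos and at 1.08 and 3.02 in late 2-cell controls, with no overlap. With FK866 it was at 2.86 FPKM in library A (51 reads) and 0.0619 in library B (1 read), a range that overlaps the controls. With FK866+NMN it was at 22.4 and 14.3 FPKM, above every other library in the table.

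In the 3 columns that the tables give to 4-cell embryos, Usp17ld had 3 reads in all over 6 libraries. Under the header 4-cell FK866 it was at 9.46 FPKM, and under 4-cell FK866+NMN at 3.28.

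Usp17la, the neighbour of Usp17lb, was uneven between libraries. It had 64 and 26 reads in early 2-cell embryos (4.27 and 2.11 FPKM) but 10 and 59 in late 2-cell controls (0.577 and 5.33 FPKM). FK866 embryos had 4 and 3 reads (0.168 and 0.139 FPKM), below both controls. FK866+NMN embryos had 222 and 7 reads (9.87 and 0.493 FPKM), so that 1 library gave nearly all of the column.

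The level of Usp17la was highest in the column headed 4-cell FK866, with 153 reads and 12.3 FPKM, while that headed 4-cell FK866+NMN had 2 reads. Libraries headed late 2-cell TSA and 4-cell control had none, which allows 0.0844 and 0.112 FPKM over the group, and those headed late 2-cell Sirt1 had 0 and 4. For Usp17la with Usp17lb, Pearson's r of the log2 levels over the 9 columns was 0.52. Among all pairs of Usp17l copies r ran from 0.17 (Usp17lb with Usp17le) to 0.94 (Usp17lb with Usp17lc), and it was 0.82 for Usp17la with Usp17ld. A link of r to promoter sequence or position was not tested. These are descriptions over 9 columns that share depth and reads between copies.

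Usp17le was close to absent. It had 44 reads over the 16 libraries, of which 22 lay in early 2-cell library A (1.96 FPKM) and 12 in late 2-cell control library B (1.45 FPKM). The other library of each of these groups had none, with a limit of 0.325 and 0.231 FPKM. The remaining reads were 4 or fewer in a library. No column reached 1 FPKM per library, so Usp17le is in none of the fold changes below. Its annotated pseudogene Usp17le-ps had 28 reads, all in early 2-cell library A.

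Zfp352 reached the highest level of a single library outside Usp17lb. In early 2-cell embryos it stood at 58.9 FPKM (54.8 to 63.3) and 26.2 (23.2 to 29.5), and in late 2-cell controls at 67.2 and 63.0. FK866 late 2-cell embryos were at 102 and 76.0 FPKM, above both controls. In FK866+NMN embryos library B was at 59.3 FPKM with 722 reads and library A had 0 reads of 8466640, which allows up to 0.156 FPKM.

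For the other members library A was higher than B in Usp17ld (22.4 against 14.3 FPKM) and Usp17la (9.87 against 0.493), and lower in Usp17lb (111 against 189) and Usp17lc (5.63 against 22.8). The 2 libraries of this column differed widely in general, with 69.6% of 5868 expressed genes over 2-fold apart. The cause was not tested. Every mean of Zfp352 in this column is set by whether that library is counted.

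The single libraries headed 4-cell FK866 and 4-cell FK866+NMN held the highest Zfp352 levels of the table, at 152 and 115 FPKM. The column headed late 2-cell TSA held 6.35 and 0.0673 FPKM, that headed 4-cell control 8.10 and 1.89, and that headed late 2-cell Sirt1 0.0439 FPKM and 0 reads. By its mean Zfp352 ranked 242 of 15737 genes in the first of these columns and 9486 in the last.

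**Figure D1:**
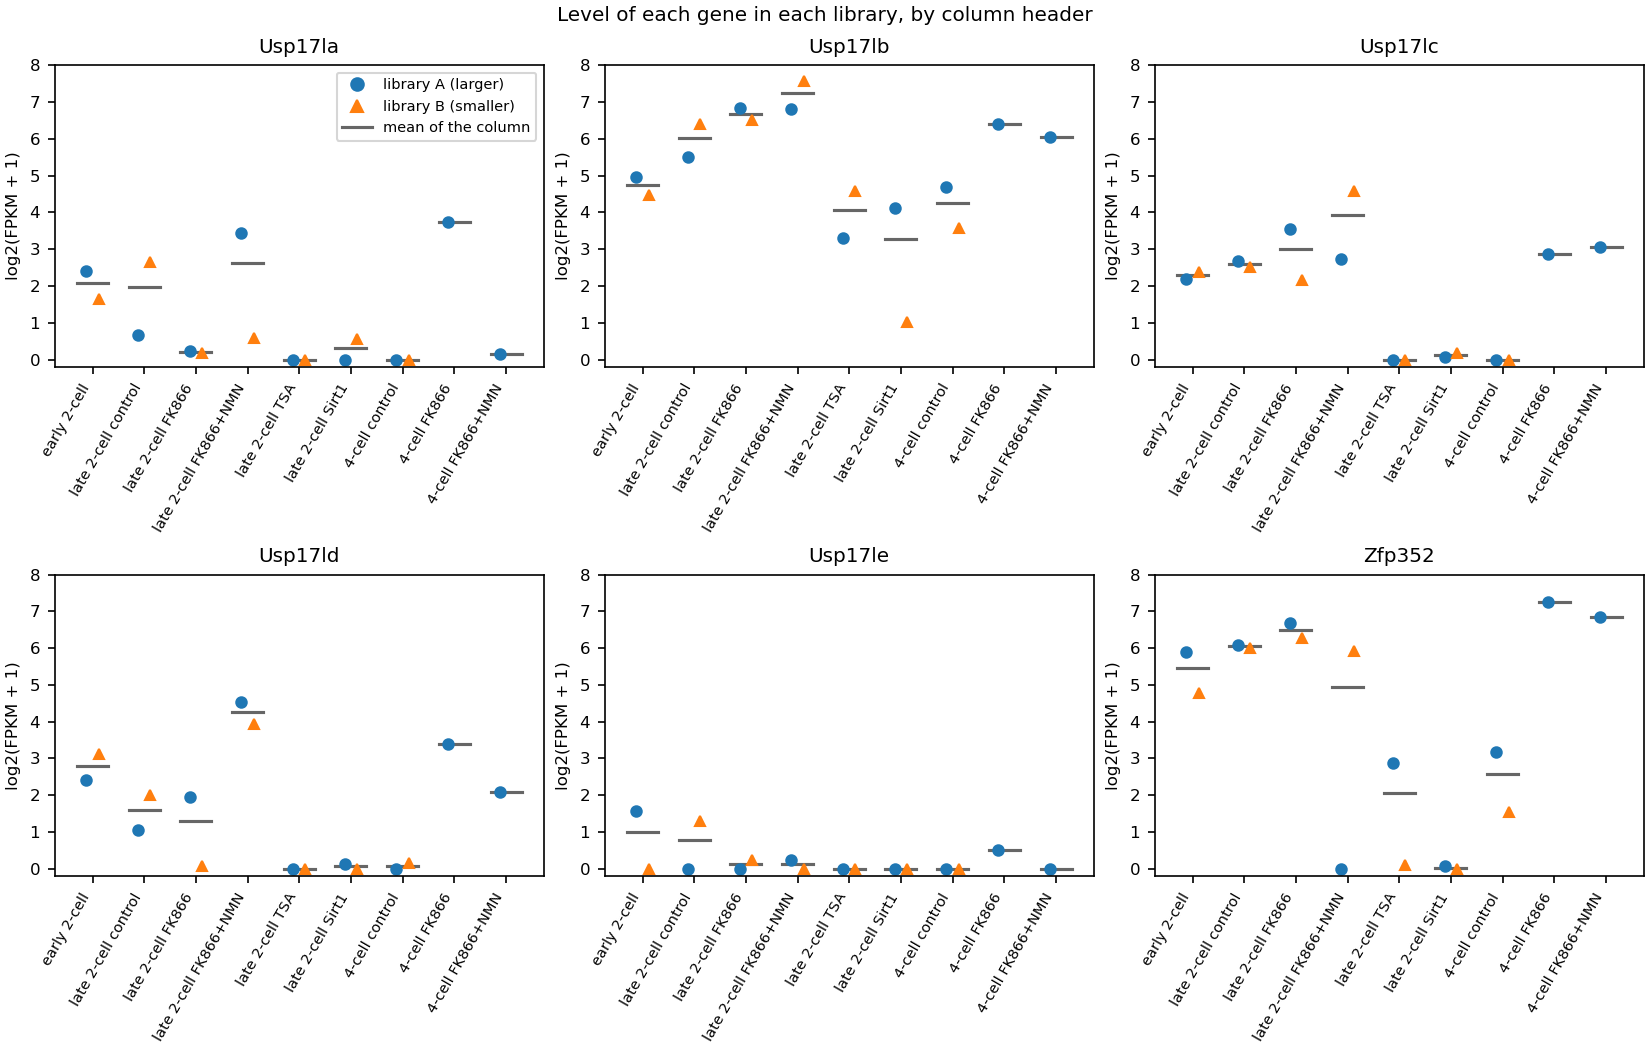
Level of the 6 genes in each separated library, as log2(FPKM + 1), by column header. Circles are the larger library of a column, triangles the smaller one, and bars the mean. The columns headed late 2-cell TSA, late 2-cell Sirt1 and 4-cell control are at or near the lowest values of every panel, and library A of late 2-cell FK866+NMN is at 0 for Zfp352.

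The share of each copy moved between groups as well as the sum. The 5 genes summed to 44.5 and 35.1 FPKM in early 2-cell libraries and to 51.8 and 98.6 in late 2-cell controls. The sums were 127 and 94.4 FPKM with FK866 and 149 and 226 with FK866+NMN. The Usp17lb share was 68.4 and 60.1% in early 2-cell libraries, lower than the 85.3 to 95.9% of late 2-cell control and FK866 libraries, and Usp17ld gave 9.62 and 21.9% at the early stage.

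**Figure D2:**
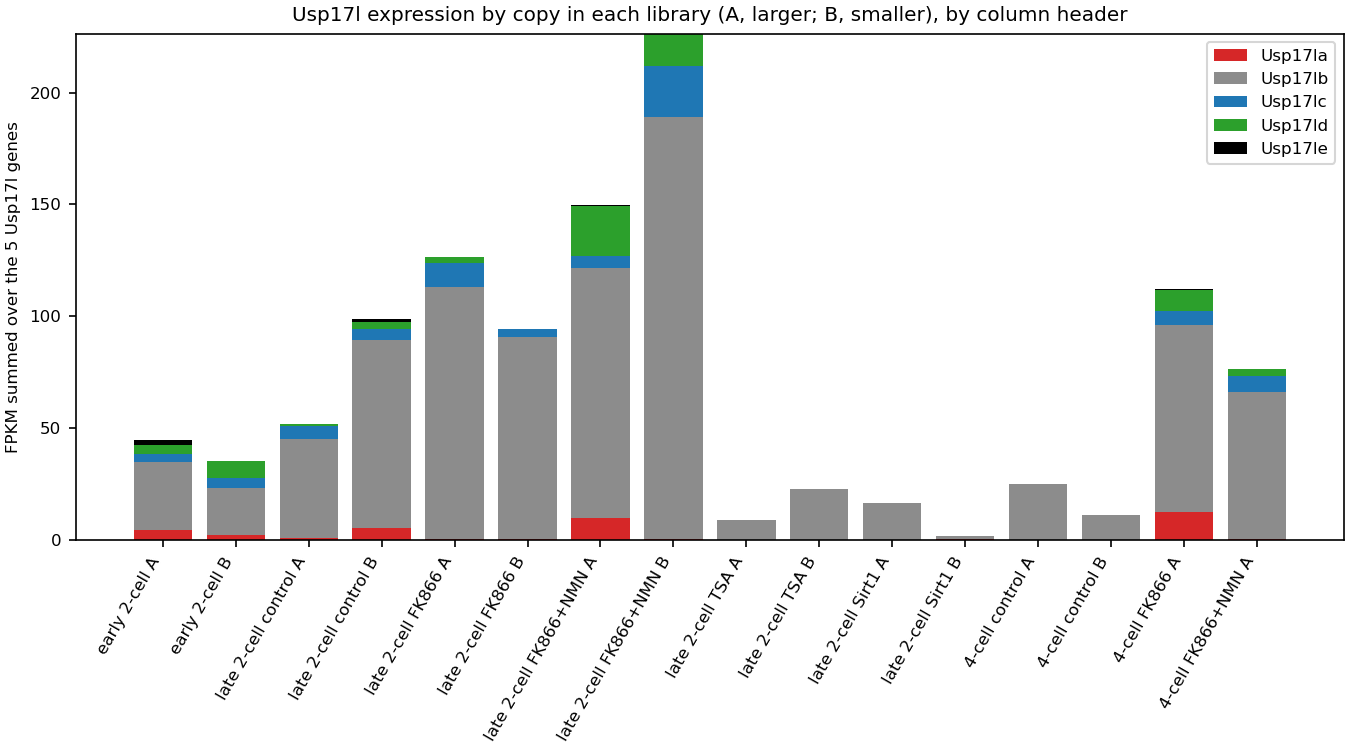
FPKM summed over the 5 Usp17l genes in each of the 16 libraries, stacked by copy and ordered by column header. Usp17lb (grey) gives most of every bar, and the bars of the columns headed late 2-cell TSA, late 2-cell Sirt1 and 4-cell control are all at or below 25.0 FPKM.

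The order of the columns was much the same for Usp17lb, Usp17lc and Zfp352 at its lower end, where the 3 columns assigned to 4-cell embryos by the tables came last. At the upper end it differed by gene whether neighbours separated. For Usp17lb the ranges of the first pair of columns, late 2-cell FK866+NMN and FK866, overlapped. For Zfp352 the top 4 columns were headed 4-cell FK866, 4-cell FK866+NMN, late 2-cell FK866 and late 2-cell control. The first 2 hold 1 library each and so have no range, which leaves their order without replication. Both late 2-cell FK866 libraries lay below these single values and above both late 2-cell control libraries. For Usp17ld, late 2-cell control and late 2-cell FK866 overlapped.

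Libraries of a group were often far apart. Of 24 pairs of a member and a column with 2 libraries and at least 1 FPKM on average, 12 differed over 2-fold between the libraries. The 2-fold cut was applied after 1 FPKM was added to each value, which understates the difference of low genes. Over all genes the share over 2-fold was 22.0% in early 2-cell and 27.2% in the column headed 4-cell control. It was 39.9 to 43.1% in the columns of late 2-cell control, FK866, TSA and Sirt1 by header, and 69.6% in late 2-cell FK866+NMN.

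The first comparison asks how the genes moved within the 2-cell stage. From early 2-cell to late 2-cell control, Usp17lb was higher, at 64.4 against 25.8 FPKM per library, a log2 fold change of 1.29. Usp17ld was lower, at 2.05 against 5.99 FPKM, a log2 fold change of -1.20. Usp17lc (0.31) and Zfp352 (0.60) were higher in both libraries but under 2-fold, and Usp17la overlapped (-0.08). So 1 of 5 members was over 2-fold higher and 1 lower, where 32.2 and 31.7% of 9514 genes were. The sum of the 5 copies was higher by 0.90. Without control library B Usp17lb was at 0.77, and without control library A or early library B Usp17ld was at -0.80 or -0.79. Libraries did not overlap for 3 members higher (31.0% of 8853 genes) and 1 lower (33.4%). Fold changes here and below are log2 of FPKM per library with 1 added, over genes that reached 1 FPKM in either column, which understates the change of low genes. A gene that reached 1 FPKM in a single column could only be higher in that column. Since whole embryos were sequenced, fewer embryos with the RNA and less RNA in each cannot be told apart.

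The comparison of FK866 with control embryos at the late 2-cell stage asks what a block of NAD+ synthesis does to these genes. FK866 embryos had more Usp17lb (101.7 against 64.4 FPKM, log2 fold change 0.65) and more Zfp352 (88.9 against 65.1 FPKM, 0.44), with both libraries above both controls but under 2-fold, a separation that 16.5% of 8611 genes showed. Usp17la was lower, at 0.153 against 2.96 FPKM, a log2 fold change of -1.78 that is the only one past 2-fold, and without overlap, as for 20.3% of 8611 genes. It rests on control library B (59 reads against 10 in A) and is -0.45 without it. Usp17lc (0.42) and Usp17ld (-0.31) overlapped. None of 5 members was over 2-fold higher and 1 was lower, against 18.1 and 20.0% of 9022 genes. The ratio of pooled reads relative to library totals was 1.70 (exact interval 1.58 to 1.83) for Usp17lb and 1.37 (1.29 to 1.45) for Zfp352, counting error only.

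Late 2-cell embryos given NMN with FK866 show whether supply past the block changes these genes. Against FK866 alone, Usp17la (5.18 against 0.153 FPKM, log2 fold change 2.42) and Usp17ld (18.3 against 1.46 FPKM, 2.97) were higher in both libraries, a separation that 9.39% of 8053 genes showed. Zfp352 was lower (29.6 against 88.9 FPKM, -1.55), and -0.58 without library A of FK866+NMN, which had no Zfp352 read. Usp17lb (0.56) and Usp17lc (0.91) overlapped. In all, 2 of 5 members were over 2-fold higher and 1 lower, against 18.9 and 33.3% of 8605 genes. Without library A of FK866+NMN the change of Usp17la was 0.37.

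Against the late 2-cell control, FK866+NMN embryos had more of 3 members over 2-fold, namely Usp17lb (150.1 against 64.4 FPKM, 1.21), Usp17lc (14.2 against 5.07 FPKM, 1.33) and Usp17ld (18.3 against 2.05 FPKM, 2.66). Both libraries lay above both controls for each, as for 10.3% of 8088 genes. Without FK866+NMN library B the values were 0.78 for Usp17lb, 0.13 for Usp17lc and 2.94 for Usp17ld, and without control library A Usp17lb was at 0.83. The background over 2-fold was 21.0% of 8639 genes higher and 36.2% lower. Zfp352 was lower by the mean (-1.11), and -0.13 without the library that had none. The median of all genes was -0.35 here, and relative to it Zfp352 was -0.76. These 3 late 2-cell comparisons share their columns, so they are not independent of each other.

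From late 2-cell to 4-cell control every tested member was lower, by either reading. Usp17la, Usp17lc and Usp17ld reached 1 FPKM only in the late 2-cell column, so once tested they could only be lower. By the headers the 5 log2 fold changes ran from -3.46 for Zfp352 to -1.53 for Usp17ld, all with both 4-cell libraries below both late 2-cell libraries (28.6% of 8472 genes), where 33.8% of 8868 genes were over 2-fold lower and 24.2% higher. Usp17la and Usp17lc had no 4-cell read and were at least 26.5- and 41.9-fold lower, taking 3 reads over the group as the floor and the late 2-cell mean as measured. The exact interval of their ratio of reads relative to library totals, which counts the error of both groups, reached 0.0580 and 0.0293. Without late 2-cell control library B the log2 fold changes of Usp17la and Usp17ld were -0.66 and -0.98. By the tables the changes ran from -3.97 for Zfp352 to -1.61 for Usp17ld, against 41.3% of 8648 genes over 2-fold lower and 23.2% higher, and 32.5% of 8166 genes lower without overlap and 23.4% higher. Usp17la, Usp17lc and Usp17ld were then at least 35.0-, 55.5- and 18.2-fold lower by the same floor, with intervals up to 0.0439, 0.0221 and 0.0792. Usp17lb stood at 17.97 FPKM in 4-cell controls under the header reading, or 15.9 under the other, and was the only Usp17l copy above 1 FPKM per library in either 4-cell control column.

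For FK866 at the 4-cell stage the 2 readings gave opposite directions. By the headers, where the median of all genes was 0.42, all 5 tested members were over 2-fold higher with FK866, from 2.16 for Usp17lb to 4.68 for Zfp352, in 1 library against 2, where 41.8% of 9368 genes were over 2-fold higher and 32.9% lower. Usp17la, Usp17lc and Usp17ld reached 1 FPKM only in the FK866 column, so once tested they could only be higher. Zfp352 was at 152 FPKM against 8.10 and 1.89. Usp17la and Usp17lc had no control read and were at least 110- and 51.9-fold higher by the floor of 3 reads, with exact intervals of the ratio from 88.6 and 41.1, and Usp17ld had 88 reads against 0 and 1. By the tables only Usp17lb and Zfp352 had 1 FPKM in either column, and neither was higher. Usp17lb was at 16.5 and 1.01 FPKM against 8.88 and 22.9, which overlaps (-0.79). Zfp352 had 1 read and 0 reads against 99 and 1, so that the difference rests on 1 control library, with a log2 fold change of -2.04 and a ratio of pooled reads relative to library totals of 0.0102 (0.000255 to 0.0579). By this reading 21.2% of 7420 genes were over 2-fold higher and 13.4% lower, and without overlap 21.3% of 6999 genes were higher and 15.1% lower.

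Adding NMN at the 4-cell stage also gave different values by reading. By the headers, in 1 library against 1, Usp17la (-3.58) and Usp17ld (-1.29) were over 2-fold lower, while Usp17lb (-0.34), Usp17lc (0.19) and Zfp352 (-0.40) were not past 2-fold. The background was 34.7% of 8929 genes lower and 25.0% higher, and with 1 library each 56.2% of 8547 genes were lower by any amount. By the tables Zfp352 was higher (4.998 against 0.0220 FPKM, 2.55) in both libraries, from 101 and 20 reads against 1 and 0, a separation that 18.9% of 7425 genes showed, and Usp17lb (0.96) overlapped. That reading had 14.8% of 7754 genes over 2-fold higher and 11.5% lower.

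TSA inhibits histone deacetylases, and the embryos given it were taken at the late 2-cell stage. By the headers all 5 tested members were over 2-fold lower than in controls, from -3.97 for Zfp352 to -1.61 for Usp17ld, against 41.3% of 8648 genes lower and 23.2% higher. Usp17la, Usp17lc and Usp17ld reached 1 FPKM only in the control column, so once tested they could only be lower. Without overlap 32.5% of 8166 genes were lower and 23.4% higher. Without control library B Usp17la was at -0.66. These are the same columns as the 4-cell to late 2-cell comparison by the tables. By the tables Zfp352 (152 against 65.1 FPKM, 1.21), Usp17la (12.3 against 2.96 FPKM, 1.75) and Usp17ld (9.46 against 2.05 FPKM, 1.78) were over 2-fold higher, with the single library above both controls, as for 43.5% of 9000 genes. Usp17lb (0.37) lay between the controls, and Usp17lc (0.26) was above both by less than 2-fold. By this reading 30.1% of 9420 genes were higher and 29.7% lower.

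Knockdown of Sirt1 showed the same dependence on the reading. By the headers all 5 members were over 2-fold lower, with Zfp352 at 1 read in 2 libraries against 998 and 597 in controls, a ratio of pooled reads relative to library totals of 0.000509 (1.29e-05 to 0.00284). All but Usp17lb reached 1 FPKM only in the control column, so once tested they could only be lower. Without control library B Usp17la was at -0.35 and Usp17ld at -0.99. Genes over 2-fold lower were 36.6% of 8779, and 24.3% were higher. By the tables Zfp352 (0.81), Usp17ld (0.49) and Usp17lc (0.46) were above both controls by less than 2-fold, Usp17lb (0.03) lay between them, and Usp17la was lower with 2 reads (-1.83). Above both controls were 32.2% of 8249 genes, and 32.9% lay below both. Relative to the median of all genes in that comparison (-0.21), Zfp352 was 1.02. That reading had 28.2% of 8622 genes lower and 16.4% higher.

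**Figure D3:**
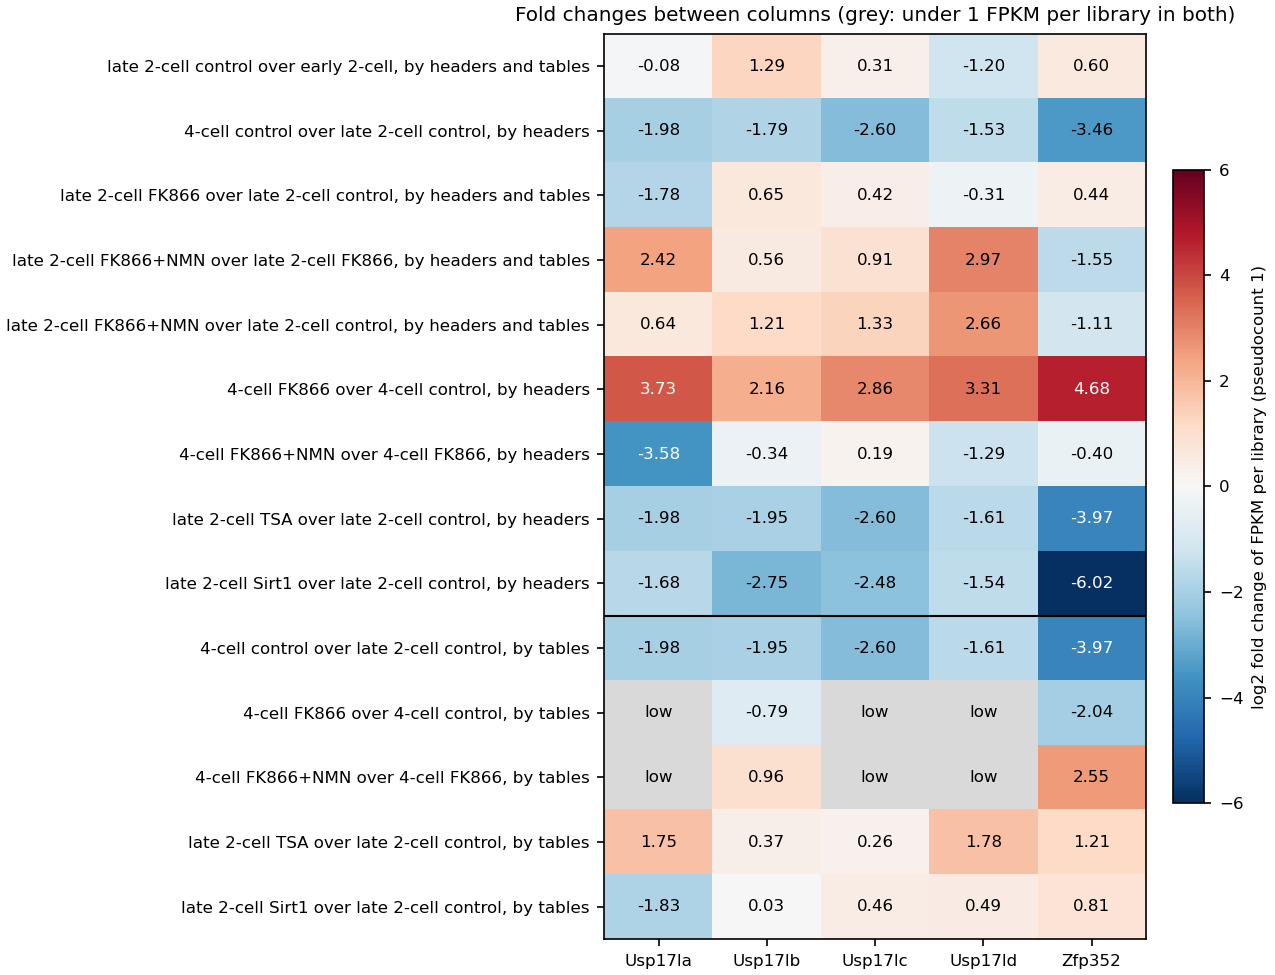
Log2 fold changes of FPKM per library, with 1 added, for 5 genes in each comparison, first by column header (above the line) and then by the study's tables where these differ. Grey cells had under 1 FPKM per library in both columns. Rows for 4-cell FK866, TSA and Sirt1 change colour between the readings, from 4.68 to -2.04 for Zfp352 with FK866 at the 4-cell stage.

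Duxf3, the factor upstream of these genes, was low throughout. It had 25 and 36 reads in early 2-cell embryos (1.64 and 2.87 FPKM). Per library it was at 0.589 FPKM in late 2-cell controls, 2.12 with FK866 and 0.904 with FK866+NMN, values that do not fall on whole reads of its annotated exons and so could not be split. The columns headed late 2-cell Sirt1, 4-cell control and 4-cell FK866+NMN had none, and that headed 4-cell FK866 had 9 reads. That headed late 2-cell TSA is listed at 0.01 FPKM for the column, or 0.00500 per library, which does not fall on whole reads either. The late 2-cell FK866 column is listed at 4.23. Where a value does not fall on whole reads, its division by the number of libraries is nominal. Duxf3 has near-identical copies, so its level is uncertain.

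Other DUX-induced 2-cell genes moved with the members in some comparisons and not in others. Of a list of 27, which also holds Duxf3 itself, 15 were among the rows and all 15 were tested from early to late 2-cell control. There 12 were over 2-fold higher and 1 was lower (median 1.73), while the 5 members had a median of 0.31. The lower gene was Duxf3 (log2 fold change -1.04), so no other gene of the list was over 2-fold lower. Counts and medians of the list include Duxf3. The 4 genes of the list with the highest mean were all higher in late 2-cell controls. Zscan5b was at 3.50 FPKM per library in early and 284 in late embryos, Ubtfl1 at 16.0 and 80.9, Tdpoz5 at 6.06 and 81.1, and Zscan4d at 29.6 and 125. In late 2-cell FK866 embryos 2 of 15 were higher and 0 lower (median -0.11). These are descriptions of a list chosen with earlier results of these data known.

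In the 3 columns that the tables call 4-cell, the list divided. Zscan4d, a telomere-associated 2-cell factor, was at 3.63, 4.01 and 10.4 FPKM, low like the members, whereas Tdpoz5 held 58.7 to 80.9 FPKM and Zscan5b 183 to 248. The column headed 4-cell FK866, with the highest Zfp352 of the table, had Zscan5b at 9.38 and Ubtfl1 at 7.28 FPKM, below those columns, but Tdpoz5 at 60.5, within their range.

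The remaining ubiquitin-specific proteases were taken from the rows themselves, as the 35 other symbols that start with Usp and a digit. Family members on chromosomes that the rows do not cover are therefore missing. Their summed level stayed between 457 and 693 FPKM per library in all 9 columns, but Usp1 alone gave 279.6 of 561 FPKM in the column headed late 2-cell TSA. Their median level was 3.11 to 3.90 FPKM in the 3 columns that the tables call 4-cell and 6.19 to 9.18 in the other 6. From late 2-cell to 4-cell control by the headers 5 of 32 tested were over 2-fold higher and 9 lower (median -0.13, against -1.98 for the 5 members). By the tables the counts were 6 higher and 9 lower of 30 (median -0.60, against -1.98). Usp1, which acts in DNA repair, was at 98.3 FPKM in late 2-cell controls and 139.9 in the column headed 4-cell control. Usp15, at 55.2 FPKM in late 2-cell controls, was at 2.42 to 3.32 FPKM in the 3 columns that the tables call 4-cell, and Usp28 was at 10.3 to 22.3 there against 78.9 in those controls.

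Genes of oocyte origin were lower in those 3 columns too. Of 12 listed maternal genes 10 were among the rows, and they summed to 66.0, 201 and 220 FPKM per library in the columns headed late 2-cell TSA, late 2-cell Sirt1 and 4-cell control, against 1953 to 6210 in the other 6. Btg4, which drives the decay of maternal RNA, was at 22.5 to 46.5 FPKM in the 3 columns against 1461 in late 2-cell controls. The part of stored maternal RNA in the levels of the members was not tested. Of 10 listed cumulus and other somatic markers 4 were among the rows, and their sum was 0 to 2.67 FPKM per library in all columns, with at least 2 of the 4 at 0 in every column. Of 6 markers of later cleavage and trophectoderm 4 were among the rows and summed to 15.7 to 70.1 FPKM, with Tfap2c at 8.18 to 65.7.

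The genes with the pattern most like Zfp352 over the 9 columns, among 5901 genes that reached 10 FPKM per library somewhere, were Arfgef1 (Pearson's r 0.99), AC109196.1 (0.98), Osbpl8 (0.98), Pkp4 (0.98) and Wasf3 (0.97). Arfgef1 ran from 57.6 FPKM in the column headed 4-cell FK866 to 1.40 in that headed late 2-cell Sirt1. For the Usp17l sum they were Mybl1 (0.99), Gm21037 (0.99), Rnf220 (0.99), Tm2d3 (0.98) and E2f4 (0.97). Mybl1, a transcription factor of the MYB family, stood at 42.0 FPKM in late 2-cell FK866+NMN and 0.837 in the column headed late 2-cell Sirt1. The 9 points are columns of these same libraries, so r is a description only.

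**Figure D4:**
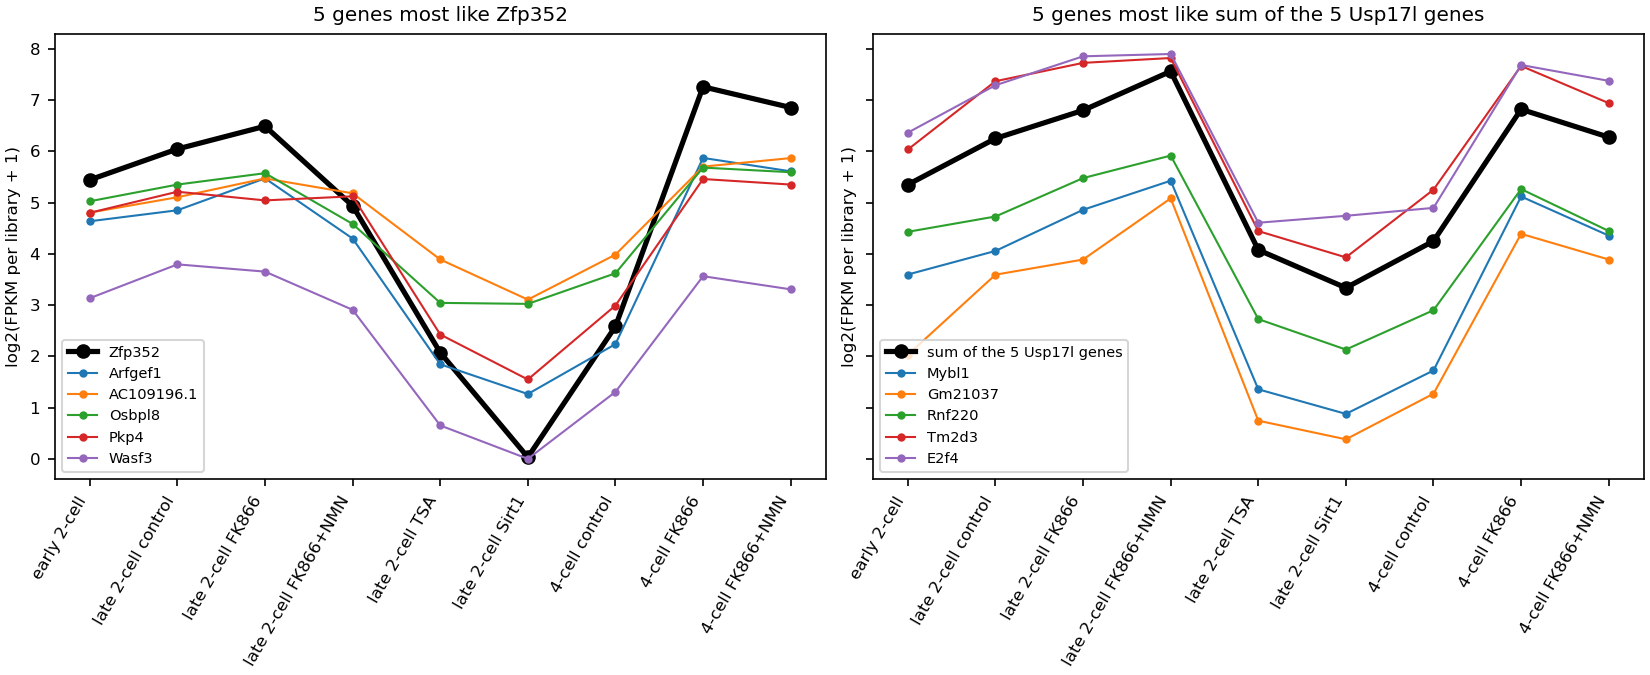
Level per library, as log2(FPKM + 1), of Zfp352 (left) and of the Usp17l sum (right) over the 9 columns by header, each with the 5 genes most like it. All lines dip at late 2-cell TSA, late 2-cell Sirt1 and 4-cell control, and the Usp17l group peaks at late 2-cell FK866+NMN, where Zfp352 does not.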

How the data were processed

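RNA-seq values of 9 groups of mouse embryos were used (the 24 H3K27ac CUT&Tag samples are not part of it). Read quality was assessed by the authors in FastQC, adapters were removed in Trim Galore, and HISAT2 alignments to mm10 were counted in featureCounts. They deposited FPKM values, 1 column per group with replicates added, although the file is described as counts. The multimapping setting is not given in the sources used here. Of 15747 complete rows, 15737 had a symbol listed once and 15360 of these an exon length in GENCODE M21. Value times length was solved for whole reads of each library, within 2e-09 of the reads, which placed 95.4 to 97.8% of values above 0. The step was tested on simulated data. Columns were divided by the number of libraries. Genes were counted past 2-fold, as log2 with a pseudocount of 1, at 1 FPKM or more in either column, with no p-value. Column identity was read from headers and, beside them, from the study's tables, of which the TSA sheet was held in part.

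The named genes are the 6 members, Duxf3, the 5 genes most like Zfp352 and the Usp17l sum, and up to 4 genes of each list with the highest mean. Sirt1 was named as the knockdown target, and Usp17le-ps after its values were seen. Members and lists were chosen with earlier results of these data known. Alternatives were other pseudocounts, filters, scaling, division, column identity and leaving out each library. The tools were Python 3.11.15, pandas 2.3.3, numpy 2.4.6, scipy 1.17.1, Biopython 1.88 and matplotlib 3.10.9.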

Additional observations from a re-analysis of the deposited data

Results flagged for a closer look

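For 3 genes the same contrast went one way at the late 2-cell stage and the opposite way at the 4-cell stage, with no overlap between the libraries. None of these differences was tested, and each rests on 1 or 2 libraries a group. By the headers, Usp17la with FK866 against control had a log2 fold change of -1.78 at the late 2-cell stage and 3.73 at the 4-cell stage, a difference of -5.51. Without late 2-cell control library B its late 2-cell value was -0.45. In that contrast 20.3% of 8611 genes were lower without overlap at the late 2-cell stage. At the 4-cell stage, in 1 library against 2, 51.4% of 8951 genes were higher without overlap and 36.5% lower. With FK866+NMN against FK866 Usp17la had 2.42 and -3.58, a difference of 6.01. Its late 2-cell value there was 0.37 without FK866+NMN library A. Usp17ld with FK866+NMN against FK866 had 2.97 and -1.29, a difference of 4.26. At the 4-cell stage that contrast is 1 library against 1, where libraries cannot overlap. At the late 2-cell stage 9.39% of 8053 genes were higher with FK866+NMN than with FK866 without overlap. The share of all genes with opposite directions was not counted.

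By the study's tables the opposite directions were those of Zfp352. With FK866 against control its log2 fold change was 0.44 at the late 2-cell stage and -2.04 at the 4-cell stage, a difference of 2.48. The 4-cell value rests on 1 control library, with 1 and 0 reads against 99 and 1. With FK866+NMN against FK866 it was -1.55 and 2.55, a difference of -4.11, where 1 of the late 2-cell FK866+NMN libraries had no Zfp352 read.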

How the results depend on the processing

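The counts of members past 2-fold were recomputed under each alternative. A pseudocount of 0.1 and no filter on low values changed none of the 18 counts by over 1.5 times. With a pseudocount of 5 the members lower were 0 (late control over early), 3 (4-cell control over late control), 0 (FK866 over control), 1 (4-cell FK866+NMN over FK866), 3 (TSA) and 2 (Sirt1), and 1 was higher for late FK866+NMN over FK866. With at least 5 FPKM the members lower were 3 (4-cell control), 0 (FK866), 3 (TSA) and 3 (Sirt1). With undivided column values 2 were lower for FK866 and 2 for FK866+NMN over control. With centring 0 were lower for FK866+NMN over control and 1 for 4-cell FK866+NMN over FK866.

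With columns assigned by the study's tables, 4-cell FK866 had 0 higher and 1 lower, 4-cell FK866+NMN 1 higher and 0 lower, TSA 3 higher and 0 lower, and Sirt1 1 lower. Fold changes past 2-fold by the headers that then reversed were, for 4-cell FK866, Usp17lb (-0.79) and Zfp352 (-2.04), for 4-cell FK866+NMN, Usp17ld (0.0053, under 1 FPKM in both columns), for TSA, Usp17la (1.75), Usp17lb (0.37), Usp17lc (0.26), Usp17ld (1.78) and Zfp352 (1.21), and for Sirt1, Usp17lb (0.031), Usp17lc (0.46), Usp17ld (0.49) and Zfp352 (0.81). Under 2-fold by the headers, Usp17lb (-0.34 to 0.96) and Zfp352 (-0.40 to 2.55) also changed sign for 4-cell FK866+NMN. With the Usp17l sum in place of the gene, 0.90 replaced the value of Usp17ld for late control over early and 0.55 that of Usp17la for FK866.

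Leaving out each library in turn gave, for members higher, 0 to 2 (late control over early), 0 to 1 (FK866), 2 to 3 (FK866+NMN over FK866) and 2 to 4 (FK866+NMN over control). For members lower it gave 0 to 2 (late control over early), 3 to 6 (4-cell control), 0 to 2 (FK866), 0 to 1 (FK866+NMN over FK866), 1 to 2 (FK866+NMN over control), 4 to 6 (TSA) and 3 to 6 (Sirt1), where 6 includes Usp17le. Late 2-cell control library B gave the lowest count for 4-cell control and Sirt1. The cause of these changes was not tested. No paired analysis was possible because the columns carry no replicate numbers. Depth limits Usp17le most, with 44 reads in all.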
